A study of Saccharomyces cerevisiae with 22 samples.

Results

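The transcriptome of budding yeast growing on raffinose and given galactose was described from the 5 libraries of cells that carried an empty plasmid, out of 22 libraries in the series. The members were chosen by their label alone, although earlier results of these data were known. Every one of the 7126 entries of the expression table was ranked by its mean level over these 5 libraries. All 5 came from strain W303, a common laboratory strain of Saccharomyces cerevisiae, and carried a 2u plasmid, a high-copy circle, with no insert named. The cells grew in a rich medium, YPR, of 1% yeast extract, 2% peptone and 2% raffinose, and 2% galactose was added for 4 h. The other 17 libraries, which carried plasmids with PSD1 or a tagged PSD1, some of them in cells without PDR3, were not used. PolyA RNA was sequenced, so RNA without a polyA tail is underrepresented. Whether the 5 replicates came from separate cultures is not in the labels, and the spread between them may be partly technical. Each value is a level in a whole culture, and fewer cells with a transcript cannot be told apart from less transcript per cell.

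Raffinose is a sugar that invertase, the SUC2 product, splits outside the cell, and it neither induces nor strongly represses the galactose genes. Galactose is bound by Gal3, which frees the activator Gal4 from its inhibitor Gal80. Gal4 then drives the genes for uptake (GAL2) and for the Leloir pathway (GAL1, GAL7, GAL10), which turns galactose into a glycolytic intermediate.

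The binding sequence of Gal4 is known as CGG and CCG with 11 bases between them, and the stretch between GAL10 and GAL1 is shown first because both genes were among the most abundant transcripts. The 2 genes are read outward from a shared gap of 668 bases on chromosome II. In the plus strand of the R64 (sacCer3) genome from RefSeq, 94 bases at chrII:278548-278641 held 3 matches, in capitals.
GAL10-GAL1: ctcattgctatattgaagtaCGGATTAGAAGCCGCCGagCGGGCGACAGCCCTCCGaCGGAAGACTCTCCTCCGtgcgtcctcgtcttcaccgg
The nearest match lay 399 bases before the GAL1 start codon and 215 bases before that of GAL10. Other genes of the galactose list held a match that is shown on the strand of the gene, with 10 bases on either side.
GAL7 (chrII:275703-275719, minus strand): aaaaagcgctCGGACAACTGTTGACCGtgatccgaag
GAL80 (chrXIII:171422-171438, plus strand): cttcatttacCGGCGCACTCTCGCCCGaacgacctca
GAL3 (chrIV:463146-463162, plus strand): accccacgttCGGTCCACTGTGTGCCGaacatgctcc
GCY1 (chrXV:550745-550761, plus strand): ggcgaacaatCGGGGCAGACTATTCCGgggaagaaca
LAP3 (chrXIV:200418-200434, plus strand): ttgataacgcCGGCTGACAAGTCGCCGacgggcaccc

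Levels are given in FPKM, fragments scaled to gene length and to library size, recovered from deposited log2(FPKM + 1) values. Total counts in replicates 1 to 5 were 14.1, 12.5, 15.4, 8.61 and 15.6, in units of 10 to the power of 6. The labels give each library a number, whose first digit was 5 for replicates 1 to 3 (called series 5 here) and 6 for replicates 4 and 5 (series 6). What it stands for is not stated there. Below, some values are said to lie apart between the 2 series. With 3 libraries against 2, chance alone can give such a separation. How many of all entries separated this way was not counted. The length that the deposited FPKM implied was the gene length minus 51 bases in series 5 and minus 49 bases in series 6, within 1 base for 93.6% to 94.0% of the genes examined. Ribosomal DNA entries (RDN) took 0.111%, 0.0921%, 0.427%, 0.320% and 0.0849% of the counts in replicates 1 to 5, so replicates 3 and 4 held the most ribosomal RNA. Pairs of libraries correlated at Pearson's r of 0.957 to 0.986 over log2 levels, a description across genes that are not independent replicates.

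Most of the genome was transcribed at a measurable level. A mean of at least 1 FPKM was reached by 6395 entries (89.7%), and 6192 entries reached it in every library. Among 6007 protein-coding loci of the annotation 5811 (96.7%) had a mean of at least 1 FPKM, 123 lay above 0 and below 1, and 73 were listed at 0 in all 5 libraries. The median over all entries was 48.6 FPKM, which is 5.63 on the log2(FPKM + 1) scale, and 3434 of 5988 nuclear protein-coding genes (57.3%) lay above it, the share against which each list is read. The quartiles of all entries were 19.1 and 113 FPKM. The largest class held 3782 entries between 10 and 100 FPKM. Only 208 entries averaged 1000 FPKM or more, yet they held 40.6% of the summed FPKM.

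The low end had a different makeup. Of 304 entries listed at 0 in all 5 libraries, 139 were tRNA genes, out of 299 in the table, and 154 further tRNA genes lay above 0 and below 1 FPKM. Small nuclear and nucleolar RNAs numbered 81, of which 25 lay under 1 FPKM and none reached 100 FPKM. tRNAs and most of these small RNAs carry no polyA tail. A further 679 entries bore open reading frame names that the RefSeq annotation does not list, and 200 of these lay under 1 FPKM.

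**Figure D1:**
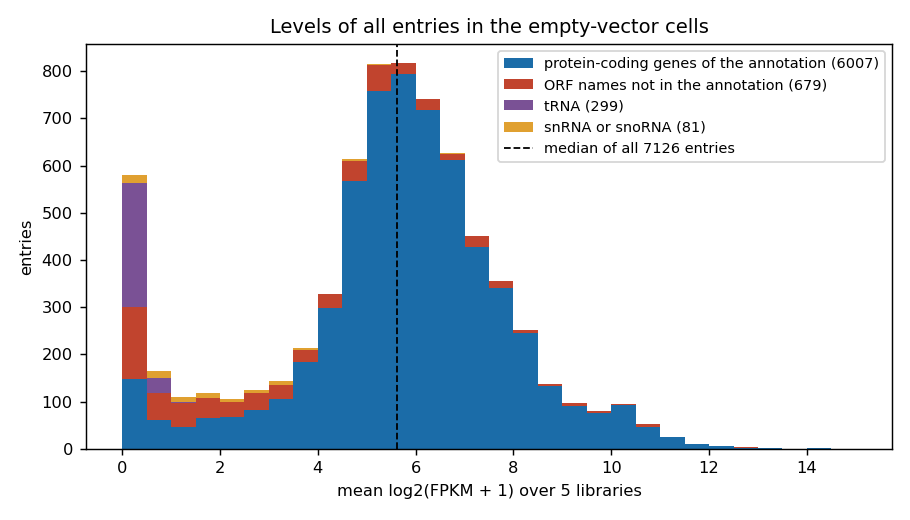
Histogram of the mean log2(FPKM + 1) of entries over the 5 empty-vector libraries, in bins of 0.5, stacked by kind of entry. Protein-coding genes form a broad peak around the dashed median of 5.63, tRNA genes stack up beside 0, and 60 entries of other kinds are not drawn.

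RNA was concentrated on few genes. The single most abundant transcript held 2.14% ± 0.179 of the summed FPKM (SD, n = 5), the first 10 held 9.24% ± 0.618, the first 30 held 15.5% ± 0.553, the first 100 held 28.0% ± 0.580 and the first 500 held 56.9% ± 1.11. The first 30 included 9 of 138 cytosolic ribosomal protein genes, 4 of 14 galactose genes, 4 of 33 cell wall genes, 3 of 42 oxidative phosphorylation genes and 2 of 17 glycolytic genes. Among the 208 entries of at least 1000 FPKM, 89 were ribosomal protein genes and 23 belonged to oxidative phosphorylation.

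CCW12, which encodes a cell wall mannoprotein, ranked first (chrXII:369697-370098). Its level was 24856, 22832, 19318, 21668 and 24101 FPKM in replicates 1 to 5, a mean of 22555 ± 2181 (SD, n = 5). Its libraries lay within 1.29-fold of each other. Cell wall mannoproteins were also found at rank 4 (CWP2, 9016 ± 1863 FPKM), rank 5 (SED1, 7817 ± 1387 FPKM) and rank 22 (HSP150, 2992 ± 309 FPKM). CCW22, a near copy of CCW12 that the annotation lists as a pseudogene, had 2999, 2936, 1301, 2814 and 3159 FPKM, with replicate 3 apart from the others. Reads that CCW12 and CCW22 share make both values uncertain.

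URA3, which encodes the orotidine phosphate decarboxylase of pyrimidine synthesis, ranked second (chrV:116167-116970). Its level was 22382, 20824, 20316, 15784 and 19282 FPKM, a mean of 19717 ± 2467. The other pyrimidine and purine genes on the list lay far lower, with URA5 next at 511 ± 48.9 FPKM and a list median of 130 FPKM. URA3 is a common selection marker on yeast plasmids, the labels name no marker for this plasmid, and the number of gene copies was not measured. Other marker genes of laboratory strains were at ordinary levels, with LEU2 at 127 ± 9.26, CAN1 at 87.2 ± 5.54, HIS3 at 39.9 ± 4.13, TRP1 at 36.7 ± 3.95 and ADE2 at 27.0 ± 2.48 FPKM.

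Translation, glycolysis and the mitochondrion were represented among the other leading transcripts. TDH3, the main glyceraldehyde-3-phosphate dehydrogenase, had 8975 ± 760 FPKM at rank 3, and FBA1, aldolase, had 3687 ± 419 FPKM. Both genes for elongation factor 1 alpha were present, TEF2 at 5544 ± 376 and TEF1 at 3930 ± 383 FPKM, and their ratio of 1.42 ± 0.0738 hardly moved between libraries although their near-identical sequences share reads. Of the ribosomal protein genes, RPS15 led with 4727 ± 455 FPKM, followed by RPS31 (4353 ± 795) and RPS26A (3924 ± 410). From the mitochondrion came POR1, the outer membrane porin (3588 ± 376 FPKM), CYC1, cytochrome c (3553 ± 470), and QCR6, a subunit of complex III (2514 ± 289). NCE103, carbonic anhydrase, ranked 23rd with 2934 ± 616 FPKM, and its lowest library was replicate 1 at 2016 FPKM.

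**Figure D2:**
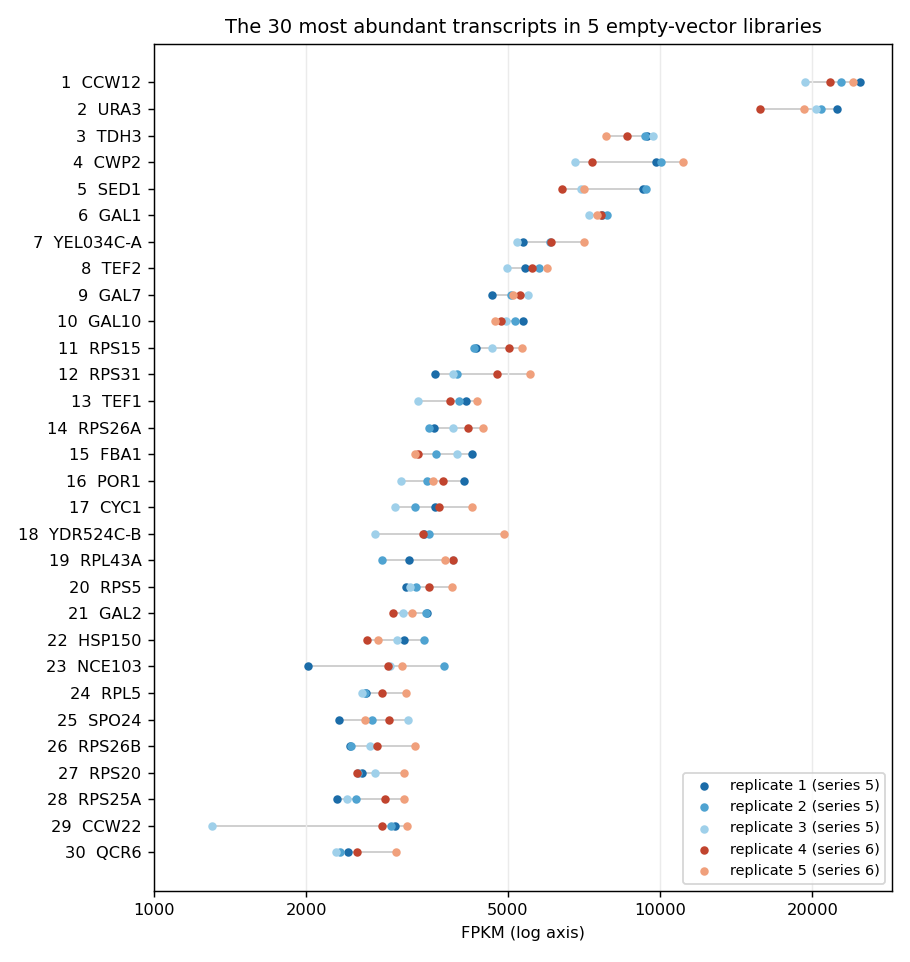
FPKM on a log axis of the 30 entries with the highest mean log2(FPKM + 1), 1 point for each of the 5 libraries and a grey line from lowest to highest. CCW12 and URA3 stand above every other entry in each library, GAL1 is tight, and CCW22 has a single low point in replicate 3 at 1301 FPKM.

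The structural genes GAL1, GAL7, GAL10 and GAL2 had very high levels, and the regulators GAL80, GAL3 and GAL4 had lower ones. GAL1, galactokinase (chrII:279021-280607), had 7681, 7850, 7229, 7651 and 7518 FPKM, a mean of 7586 ± 232, and ranked 6th. GAL7, the uridylyltransferase (chrII:274427-275527), had 4644, 5082, 5474, 5295 and 5112 FPKM. GAL10, the epimerase and mutarotase (chrII:276253-278352), had 5354, 5175, 4969, 4846 and 4722 FPKM. These 3 genes of a single cluster differed in level by less than 2-fold in every library, with GAL1 the highest in each. GAL2, the galactose permease on chromosome XII (chrXII:290212-291936), had 3464, 3443, 3107, 2966 and 3241 FPKM. GAL2 resembles hexose transporter genes in sequence and can share reads with them.

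The regulators were far lower. GAL80, the inhibitor, had 347, 406, 459, 423 and 393 FPKM. GAL3, the sensor, had 429, 329, 384, 371 and 306 FPKM. Their ranges overlapped. GAL4, the activator, had 28.4, 26.8, 27.4, 24.4 and 24 FPKM, which placed it at rank 4912 and below the median of all entries. The GAL1 level was 291 ± 23.6 times that of GAL4 and 21.2 ± 2.98 times that of GAL3, and GAL80 exceeded GAL4 by 15.6 ± 2.04 times (ratios of FPKM within a library, SD, n = 5).

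Of 14 genes on the galactose list, 13 lay above the median of all entries, and GAL4 was the exception. GCY1, a glycerol dehydrogenase known to respond to galactose, had 1171, 1177, 1146, 1173 and 1156 FPKM and was among the 6 steadiest genes of the table. PGM2, the main phosphoglucomutase, which finishes the route to glycolysis, had 217, 239, 171, 189 and 116 FPKM, against 96.1 ± 12.5 for its isozyme PGM1. LAP3, a cysteine protease regulated by Gal4, had 423, 443, 387, 399 and 246 FPKM, with replicate 5 the lowest. The remaining members were MTH1, a regulator of glucose sensing (210 ± 18.6 FPKM), FUR4, the uracil permease (114 ± 18.6), and PCL10, a cyclin of the Pho85 kinase (78.2 ± 12.5).

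Most transporters for other hexoses were weakly expressed. Of 19 hexose transporter and sensor genes, 2 lay above the median of all entries, HXT7 and HXT6, which encode near-identical high-affinity transporters and share reads. HXT7 had 922, 696, 273, 538 and 719 FPKM, and HXT6 had 710, 212, 76.6, 227 and 141 FPKM. Replicate 3 was the lowest for both genes and replicate 1 the highest. The sensors RGT2 (36.1 ± 3.31 FPKM) and SNF3 (28.7 ± 3.01) were steadier. The low-affinity transporters known for growth on high glucose were at 9.71 ± 2.12 FPKM (HXT1) and 16.1 ± 1.69 (HXT3), and the induced transporters were at 19.7 ± 6.14 (HXT2) and 8.25 ± 1.42 (HXT4). HXT5 had 49.8, 74.1, 61.5, 23.3 and 17.9 FPKM, lower in both libraries of series 6 than in any of series 5. HXT15 had 32.7 ± 7.61 FPKM, and HXT12, HXT8, HXT11, HXT13 and HXT9 lay between 2.43 and 8.91. HXT10, HXT17, HXT14 and HXT16 closed the list, with 1.04 ± 0.439, 0.744 ± 0.303, 0.172 ± 0.153 FPKM and a listing at 0 in all 5 libraries.

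Hexose phosphorylation was served by 4 expressed genes, all above the median. HXK2, the hexokinase also known as a glucose regulator, had 735, 714, 1006, 679 and 768 FPKM, and exceeded HXK1 by 2.76 ± 0.564 times. Glucokinase, GLK1, had 496 ± 85.8 FPKM and its paralog EMI2 127 ± 7.48. Among genes for disaccharide and raffinose use, SUC2 led with 161, 120, 79.8, 95.5 and 116 FPKM. The activator MAL33 (55.2 ± 6.21 FPKM) was the other of 14 measured members above the median. MAL31 had 40.5 ± 4.01 FPKM, MPH3 25.1 ± 5.11, MAL11 24.1 ± 1.35, MAL13 17.9 ± 1.19, MAL12 16.0 ± 5.16, MAL32 12.5 ± 1.65 and MPH2 5.06 ± 3.09. The isomaltases IMA1 to IMA5 lay between 3.73 and 5.43 FPKM. IMA3 and IMA4 had identical values in every library and are copies that share reads.

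**Figure D3:**
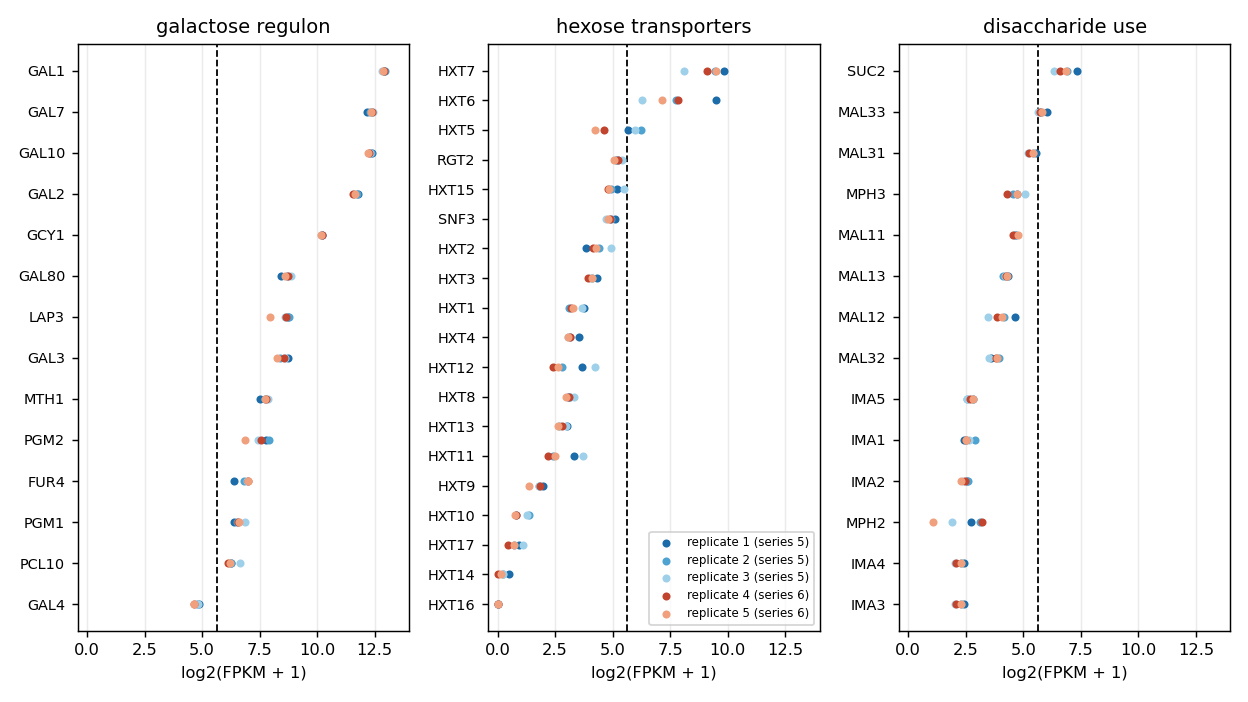
log2(FPKM + 1) of each gene of 3 lists, 1 point per library, with the median of all entries as a dashed line. Galactose genes other than GAL4 lie right of the line in every library, whereas 17 of 19 hexose transporter and sensor genes have means left of it.

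All 17 glycolytic genes lay above the median, with a list median of 780 FPKM. In the isozyme pairs examined, 1 gene had most of the level. Pyruvate kinase came from CDC19 (2244 ± 603 FPKM), 34.7 ± 6.17 times the level of PYK2. Enolase came from ENO2 (2497 ± 540) more than ENO1 (744 ± 331), but their ratio ran from 1.77 to 7.44 between libraries. Of the glyceraldehyde-3-phosphate dehydrogenases, TDH3 exceeded TDH2 by 12.2 ± 3.37 times. TDH1, an isozyme known from resting and stressed cells, had 539, 472, 351, 169 and 36.2 FPKM and was lowest in replicate 5.

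Among fermentative genes a single isozyme also led. PDC1, pyruvate decarboxylase, had 1853, 2512, 3384, 2478 and 2232 FPKM, 97.9 ± 33.6 times PDC5, and PDC6 had 2.40 ± 1.22 FPKM. ADH1, the fermentative alcohol dehydrogenase, had 1688 ± 151 FPKM and exceeded the glucose-repressed ADH2 (88.7 ± 30.3 FPKM) by 21 ± 7.65 times. ADH4 had 502, 595, 448, 180 and 50.7 FPKM and was lowest in both libraries of series 6. In all, 9 of 13 fermentation genes lay above the median.

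Respiratory genes were abundant. Of 42 oxidative phosphorylation genes, 39 lay above the median and 23 averaged at least 1000 FPKM, for a list median of 1013 FPKM. For the TCA cycle, 20 of 21 genes lay above the median, led by ACO1 (1050 ± 90.6 FPKM), SDH2 (1019 ± 98.7) and IDH2 (1015 ± 55.3), and CIT3 was the exception at 17.5 ± 2.64. In each pair compared the aerobic isoform led. CYC1 exceeded CYC7, the hypoxic cytochrome c, by 43.4 ± 7.18 times. COX5A exceeded COX5B, the hypoxic oxidase subunit, by 32.6 ± 4.36 times. PET9, the main ADP/ATP carrier (2426 ± 324 FPKM), exceeded AAC1 by 41.9 ± 8.15 times, and the hypoxic AAC3 had 2.17 ± 0.512 FPKM.

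Genes that glucose represses for growth on non-fermentable carbon were at middling levels. In the list of gluconeogenesis and the glyoxylate cycle, 9 of 17 genes lay above the median, near the share of protein-coding genes in general. ICL1, isocitrate lyase, had 220, 241, 174, 135 and 108 FPKM, and JEN1, the lactate transporter, had 280, 160, 104, 123 and 144 FPKM. The gluconeogenic enzymes FBP1 (29.6 ± 18.3 FPKM) and PCK1 (35.7 ± 20.2) were low and varied between libraries. Of 15 genes of peroxisomal fatty acid oxidation, 4 lay above the median, and POX1, the first enzyme of that pathway, had 6.31 ± 1.90 FPKM. Of 29 regulators of carbon use, 17 lay above the median, with HAP4, the activator of respiratory genes, at 329 ± 23.4 FPKM and the repressor MIG3 lowest at 5.87 ± 0.306.

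Ribosomal proteins took the largest share of any list. All 138 cytosolic ribosomal protein genes lay above the median of all entries, with a list median of 1159 FPKM, and together they held 15.1%, 16.0%, 16.4%, 18.0% and 19.8% of the summed FPKM in replicates 1 to 5. The share was thus higher in both libraries of series 6 than in any of series 5. A range of 76.0-fold separated RPS15 from RPL41A (62.2 ± 34.8 FPKM), whose coding sequence is among the shortest in the genome.

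Budding yeast keeps a pair of gene copies for many ribosomal proteins, and 59 such pairs were measured. In 54 pairs the same copy was the higher in all 5 libraries. The median ratio of the higher to the lower copy was 1.34, with 35 pairs at a mean ratio of 1.5 or less and 17 above 2. RPL15A exceeded RPL15B by 18.9 ± 2.51 times (1511 against 80.3 FPKM), RPS14A exceeded RPS14B by 6.57 ± 0.629 times and RPS28A exceeded RPS28B by 6.65 ± 0.360 times. At the other end RPL12B and RPL12A stood at 1.07 ± 0.0450 and RPS6A and RPS6B at 1.04 ± 0.0612. Near-identical copies share reads, so these ratios are uncertain. RPL33A and RPL36B, lower copies of pairs with a ratio above 2, also had an unannotated name of far higher level numbered beside them. Such entries may have divided reads, as described below for RPL33A, which was not tested.

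Other parts of the machinery for making and degrading proteins were uniformly expressed. All 67 mitochondrial ribosomal protein genes lay above the median within a 5.65-fold range, with a list median of 233 FPKM, and all 34 proteasome genes did so within a 3.93-fold range, from SEM1 (409 ± 36.1 FPKM) to the activator RPN4 (104 ± 7.17). Of 54 ribosome biogenesis genes 53 lay above the median, led by NOP1 (754 ± 76.8), and UTP20 was the exception at 25.2 ± 2.05 FPKM. Of 31 RNA polymerase genes 30 did so, and of 32 translation factors 30. The translation factors below it were ANB1, the hypoxic form of eIF5A, at 0.674 ± 0.357 FPKM, and HYP2, its aerobic form, which was listed at 0 in all 5 libraries.

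The HYP2 entry is a case where overlapping entries may have divided reads, which was not tested. The HYP2 count was 0 in all 5 libraries. YEL034C-A, an unannotated name that the numbering places beside HYP2 on the other strand, had 5366, 6048, 5218, 6098 and 7062 FPKM and ranked 7th. The same arrangement was seen at RPL33A (87.2 ± 23.7 FPKM), beside which YPL142C had 2345 ± 254, and at RPL28 (90.3 ± 37.6), beside which YGL102C had 1618 ± 208. RPL22A had 34.6, 132, 326, 434 and 797 FPKM beside YLR062C with 1488 ± 83.7 FPKM. In these 4 cases, picked after their values were seen, the unannotated name had the higher level. In others the annotated gene was the higher. RPL43A had 3512 FPKM beside YPR044C with 860, and CDC19 had 2244 beside YAL037C-B with 409. GCY1 had 1165 FPKM beside YOR121C with 932. Of the 679 entries with names outside the annotation, 10 averaged at least 1000 FPKM. The strand setting of the counting is not given in the sources used here, so the level of a gene and of its overlapping partner cannot be told apart.

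The codons of abundant transcripts differed from those of rare ones. For each of 18 amino acids the codon most used in the ribosomal protein genes was taken as preferred, and its share was computed in 5906 genes. The median share was 36.9% among non-ribosomal genes below 1 FPKM, 36.3% from 1 to 10 FPKM, 37.1% from 10 to 100, 42.9% from 100 to 1000 and 60.8% among genes of at least 1000 FPKM. Over 5771 genes outside the ribosomal protein list Pearson's r with mean log2(FPKM + 1) was 0.465 and Spearman's rho was 0.498, a description across genes that share the same libraries. The first 90 coding bases of leading genes and of the low GAL4 and SPO13 are shown to make this visible, with preferred codons in capitals, read from the R64 genome of RefSeq.
CCW12 (chrXII:370009-370098, minus strand): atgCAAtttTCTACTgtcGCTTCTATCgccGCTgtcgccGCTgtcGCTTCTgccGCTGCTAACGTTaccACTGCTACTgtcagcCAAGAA
TDH3 (chrVII:883721-883810, minus strand): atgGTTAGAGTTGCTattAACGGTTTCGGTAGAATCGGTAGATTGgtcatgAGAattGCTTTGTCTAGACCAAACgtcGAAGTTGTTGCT
URA3 (chrV:116167-116256, plus strand): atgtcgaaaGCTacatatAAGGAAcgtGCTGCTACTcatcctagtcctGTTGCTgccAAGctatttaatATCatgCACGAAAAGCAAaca
GAL1 (chrII:279021-279110, plus strand): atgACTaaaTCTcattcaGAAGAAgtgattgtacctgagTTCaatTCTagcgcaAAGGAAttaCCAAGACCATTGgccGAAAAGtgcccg
GAL4 (chrXVI:82267-82356, minus strand): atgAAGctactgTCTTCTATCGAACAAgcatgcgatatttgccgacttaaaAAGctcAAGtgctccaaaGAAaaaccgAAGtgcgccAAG
SPO13 (chrVIII:132047-132136, plus strand): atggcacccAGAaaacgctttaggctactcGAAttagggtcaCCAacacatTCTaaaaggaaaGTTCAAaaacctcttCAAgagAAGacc
Of 30 codons shown, 24 were preferred in TDH3, 19 in CCW12, 14 in URA3, 14 in GAL1, 11 in GAL4 and 8 in SPO13. Over the whole gene the share was 79.8% in TDH3 and 74.0% in CCW12. URA3 at 45% and GAL1 at 43.1% lay nearer to the median for genes of 100 to 1000 FPKM than to that of their own level.

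Histone, cytoskeletal and cell wall genes lay mostly above the middle of the table. All 11 histone genes lay above the median (HHF2 led with 2258 ± 245 FPKM), as did 21 of 24 cytoskeletal genes, with actin, ACT1, at 1513 ± 93.5 FPKM. Of 33 cell wall and GPI protein genes 27 lay above the median, and the lowest were TIR1 (2.62 ± 0.812 FPKM) and DAN1 (0.436 ± 0.125), which are known as cold-shock and anaerobic mannoproteins. The plasma membrane proton pump PMA1 had 1648 ± 136 FPKM, against 15.7 ± 5.84 for its minor isoform PMA2. The cyclins and Start list had 20 of 26 above the median and the DNA replication list 20 of 38, near the share of protein-coding genes in general, where RNR1 (202 ± 14.9 FPKM) exceeded its damage-inducible isoform RNR3 by 30.9 ± 5.50 times.

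Most of the biosynthetic lists lay largely above the median in this rich medium, and no other medium was compared. Of 60 amino acid synthesis genes 57 lay above the median, and GCN4, their activator, had the highest level at 1918 ± 141 FPKM. Of 24 ergosterol synthesis genes 23 did so, led by ERG20 (836 ± 68.5), with HMG1 at 2.55 ± 0.133 times HMG2. Of 25 phospholipid synthesis genes 20 did so, led by INO1, ITR1 and OPI3, which varied widely between libraries. Sulfur assimilation had 10 of 23 genes above the median, a lower share than the 57.3% of nuclear protein-coding genes. There SAM2 (1184 ± 478 FPKM) was the highest and the sulfate permease SUL2 (11.4 ± 1.42) the lowest. Purine and pyrimidine synthesis had 22 of 26.

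Scavenging and starvation genes spread around the middle of the table. The counts above the median were 10 of 22 for the iron regulon, 9 of 19 for the phosphate regulon, 11 of 26 for thiamine and vitamin B6 genes, 18 of 28 for nitrogen-repressed genes and 15 of 20 for amino acid and peptide permeases. GAP1, the general amino acid permease, had 410 ± 43.7 FPKM, and UGA4, the GABA permease, 5.42 ± 0.680. Stress lists lay higher, with 27 of 30 general stress genes, 23 of 27 cytosolic heat shock genes, 24 of 28 redox genes, 23 of 26 ER folding genes and all 9 measured vacuolar protease genes above the median. HSP12, a small membrane-associated stress protein, had 2671, 2927, 1298, 1764 and 1420 FPKM. A list of 10 markers that the study's design turns on holds the activators of drug resistance, their transporter genes and 2 genes of mitochondrial import stress, and 3 lay above the median. These were MSP1, a mitochondrial outer membrane ATPase (82.0 ± 8.87 FPKM), and the drug transporters PDR5 (64.8 ± 8.09) and SNQ2 (50.5 ± 4.87). The activators PDR1 and PDR3 had 41.3 ± 1.90 and 30.1 ± 3.02 FPKM. The transporter genes RSB1 (26.4 ± 2.21), YOR1 (26.3 ± 2.63), PDR15 (23.5 ± 3.55) and PDR10 (11.8 ± 1.12) were lower, and CIS1, an import stress factor, was the lowest at 2.36 ± 0.828.

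**Figure D4:**
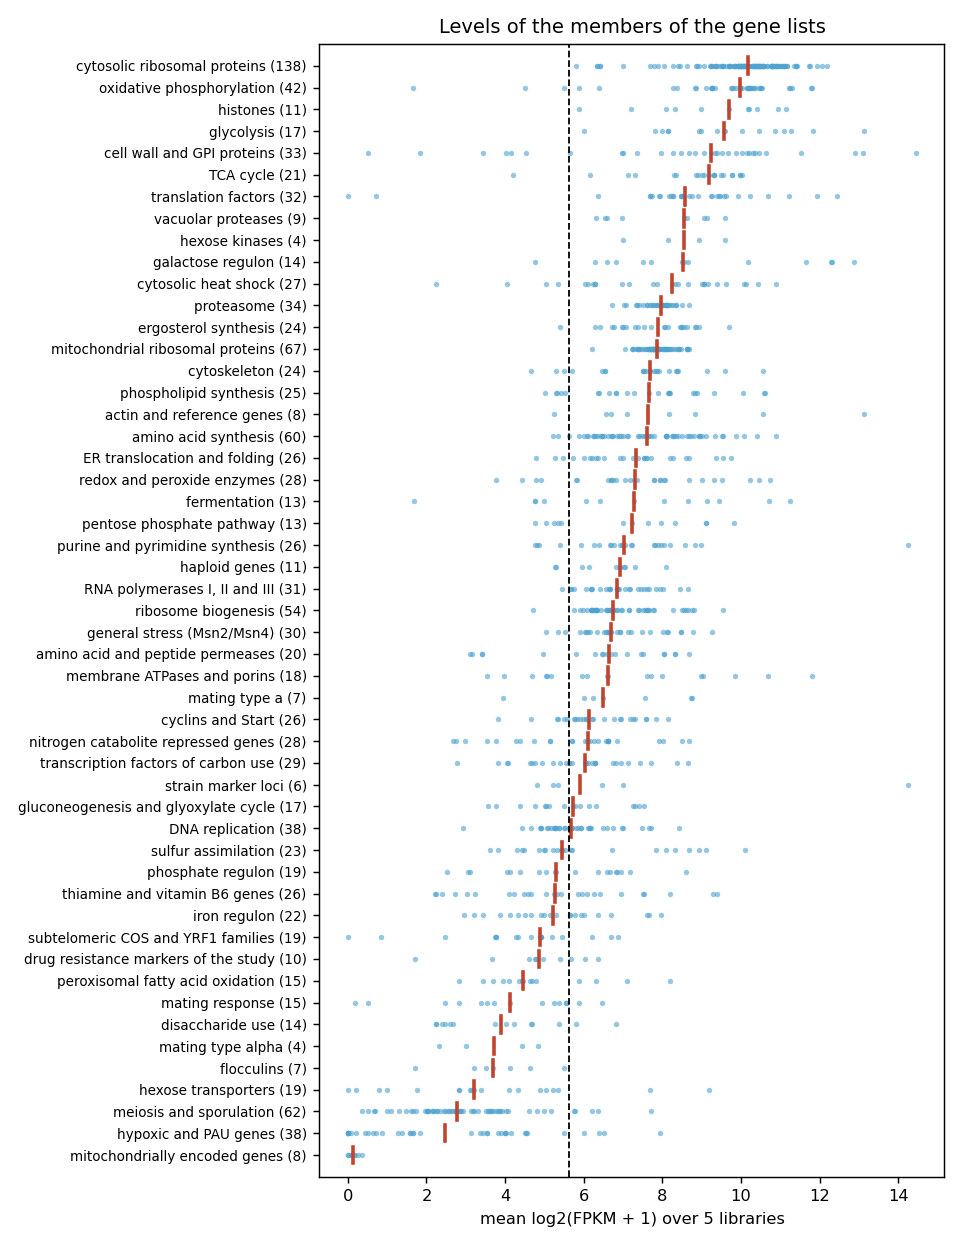
Mean log2(FPKM + 1) of every measured member of the 51 gene lists, 1 blue point per gene, with the list median as a red bar, the number of measured members in parentheses and the median of all entries as a dashed line. Ribosomal proteins and oxidative phosphorylation lead, and hexose transporters, meiosis, PAU and mitochondrially encoded genes lie at the bottom.

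Genes of meiosis were low. Of 62 meiosis and sporulation genes, 5 lay above the median of all entries, 40 averaged less than 10 FPKM and the list median was 5.85 FPKM. IME1, the master inducer of meiosis, had 4.53, 7.03, 7.60, 7.64 and 6.61 FPKM, its target kinase IME2 had 6.39 ± 0.653, and NDT80, the activator of mid-sporulation genes, had 12 ± 0.940. SPR3, a septin of sporulation (1.02 ± 0.245 FPKM), and REC8, the meiotic cohesin subunit (2.35 ± 0.317), were lower still. The members above the median were led by UBX6 (217 ± 62.1 FPKM), MUM2 (82.0 ± 5.73) and GSC2 (74.0 ± 15.6). Under 1 FPKM lay 4 of the 62 genes (6.45%), beside 3.26% of all protein-coding loci.

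Genes specific to a cells were expressed, and those specific to alpha cells were low. STE2, the receptor that a cells use, had 383, 419, 463, 451 and 416 FPKM, and STE3, the receptor of alpha cells, had 4.32, 3.15, 5.38, 3.75 and 3.57 FPKM. The groups of values did not overlap, and STE2 exceeded STE3 by 109 ± 20.6 times. Of 7 a-specific genes 6 lay above the median, with MFA2, an a-factor gene, at 433 ± 65.4 FPKM and ASG7 the exception at 14.7 ± 2.26. The others were AGA2, an agglutinin subunit (188 ± 19.6 FPKM), STE6, the a-factor exporter (89.4 ± 11.1), BAR1, the protease that degrades alpha factor (76.0 ± 18.4), and MFA1 (65.8 ± 19.1). None of 4 alpha-specific genes did, with SAG1, the alpha-agglutinin, the highest at 27.6 ± 2.28 FPKM and the alpha-factor gene MF(ALPHA)2 at 20.9 ± 4.39. MF(ALPHA)1 had 31.1, 7.85, 3.77, 7.5 and 1.85 FPKM and was highest in replicate 1. Haploid genes were expressed, 9 of 11 above the median, including GPA1 (120 ± 9.39) and STE4 (132 ± 13.6). Of 15 genes induced by pheromone 2 lay above the median, and FIG1 (0.432 ± 0.239) and PRM6 (0.134 ± 0.127) were under 1 FPKM.

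Gene families and mitochondrial genes were also low. Of 38 measured PAU and hypoxic genes 12 lay under 1 FPKM and 5 were listed at 0, among them PAU11, PAU16, PAU18 and PAU19, while ROX1, the repressor of hypoxic genes, had 246 ± 20.2 FPKM. None of 7 flocculin genes lay above the median, and FLO1 had 2.31 ± 0.534 FPKM. Of 19 subtelomeric COS and YRF1 genes 3 did. None of 8 measured mitochondrially encoded genes did, and the highest, COX1, had 0.294 ± 0.237 FPKM. Mitochondrial mRNAs of yeast carry no polyA tail, so these values say little of mitochondrial transcription.

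Position on the chromosome went with level. Of 122 protein-coding genes within 10 kb of a chromosome end 27.0% averaged less than 1 FPKM, with a median of 8.71 FPKM. From 10 to 25 kb the share was 7.65% of 196 genes, and beyond 100 kb it was 2.31% of 4497 genes with a median of 62.4 FPKM. The families near the ends consist of close copies, whose shared reads add uncertainty. Genes with more than 1 coding segment numbered 318 and held 13.0% ± 1.15 of the summed FPKM, and 90 ribosomal protein genes alone accounted for 10.1% ± 1.15.

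Known binding sequences of regulators were counted in the 500 bases before the start codon of 5980 genes, on both strands. A match is a description of letters and not of binding, matches of different motifs may overlap, and the lists were made of known targets, so the counts are not independent of the motif. The Gal4 sequence was found before 11 of 14 galactose genes and 2.96% of all genes. Outside the list 166 genes held it, of which 102 (61.4%) lay above the median of all entries, beside 57.3% of nuclear protein-coding genes. Their median was 6.14 on the log2(FPKM + 1) scale and that of genes without the sequence 5.89, so their levels lay near the background. Single genes differed, and ENO2, with a match 466 bases before its start, had a far higher level of 11.3 on that scale.

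The PAC element GATGAG was present before 51 of 54 ribosome biogenesis genes against 28.3% of all genes. The stress element CCCCT was present before 26 of 30 general stress genes (34.1% of all), the Gcn4 sequence TGACTC before 40 of 60 amino acid genes (12.7%), the Cbf1 sequence TCACGTG before 18 of 23 sulfur genes (4.57%) and the Hsf1 sequence of TTC, GAA and TTC with 2 bases between each before 10 of 27 heat shock genes (1.49%). Amino acid genes with TGACTC had a median of 8.19 on the log2(FPKM + 1) scale and those without it 6.67. The URS1 sequence GGCGGC, known to repress meiotic genes in growing cells, was before 21 of 62 meiosis genes (9.57% of all), and the medians with and without it were 2.88 and 2.75. The Rap1 sequence of CACCC and ACA with 2 bases between them was before 29 of 138 ribosomal protein genes (2.22%) and 3 of 17 glycolytic genes, and the Pdr1 and Pdr3 sequence TCCGCGGA before 4 of 10 genes of the Pdr1 and Pdr3 marker list (0.635%). The inositol-responsive element UASINO, searched as a single 10-base form, was found before 0 of 25 phospholipid synthesis genes and 0.0669% of all.

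Replicates differed little for most genes. Among 5776 entries with a mean of at least 10 FPKM the median SD of log2(FPKM + 1) was 0.126 and the median coefficient of variation was 8.92%, where counting error alone would give 3.01%. The biological coefficient of variation that edgeR estimated was 16.2%, and 14.3% with the library series as a term. An SD above 0.5 was seen for 239 entries and above 1 for 59. Names outside the annotation had a median SD of 0.277 against 0.122 for protein-coding genes. Spread also went with coding length, from a median SD of 0.530 for genes under 150 bases to 0.104 for those of 2400 bases or more. The class under 150 bases had a median of 8.31 FPKM, with 18 of its 60 genes below 1 FPKM. The part of counting error in this trend was not tested. Entries of at least 1000 FPKM had a median SD of 0.186, above that of the 2 classes below.

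The steadiest gene was PFY1, which encodes profilin (568, 560, 567, 567 and 567 FPKM). SLA2, an actin-binding protein of endocytosis, had 153, 154, 154, 157 and 154 FPKM. They were followed by MNN2, a mannosyltransferase, GCY1, STP1 and the septin CDC11. Their SD on the log2(FPKM + 1) scale ran from 0.0089 to 0.019, and they were picked as the smallest of many. ACT1, often used as a reference, had 1398, 1651, 1469, 1541 and 1505 FPKM. The 8 measured actin and reference genes had a median SD of 0.112, beside 0.126 for all entries of at least 10 FPKM.

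Replicate 5 was the lowest library for 31 of the 59 entries with an SD above 1, and replicate 3 was the highest for 22. The same was not counted over all entries, so these counts have no background share. Some of the 59 are copies with identical values, and where several libraries were listed at 0 the first was taken as lowest. INO1, which encodes the enzyme that makes inositol phosphate (chrX:134332-135933), had 4827, 1037, 1271, 2860 and 76.2 FPKM. ITR1, the inositol permease, had 2579, 1595, 1383, 2302 and 715 FPKM, and OPI3, a phospholipid methyltransferase, had 2535, 1592, 1473, 2346 and 608 FPKM. These 3 genes, all known to respond to inositol, were highest in replicate 1 and lowest in replicate 5. CHO1, phosphatidylserine synthase, kept the same lowest and highest libraries with 722, 495, 343, 641 and 285 FPKM.

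A second set was low in replicate 5. ZPS1, a protein known to be induced by low zinc (chrXV:34658-35407), had 769, 1214, 663, 546 and 22.2 FPKM. ZRT1, the high-affinity zinc transporter, had 1524, 1606, 949, 1108 and 208 FPKM. ADH4, given above, is likewise known as a gene of low zinc, and also was lowest there. The biotin genes VHT1 (936, 596, 662, 1061 and 355 FPKM) and BIO4 (430, 184, 366, 652 and 110 FPKM) were highest in replicate 4 and lowest in replicate 5. PHO84, the phosphate transporter, had 189, 346, 50.1, 57.7 and 53.6 FPKM and was highest in replicate 2.

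Replicate 3 stood apart for other genes. KAR2, the ER chaperone, had 595, 560, 1139, 572 and 555 FPKM, and PDI1, protein disulfide isomerase, had 724, 700, 1160, 668 and 607 FPKM. The gaps of replicate 3 from the rest exceeded the spread among the other 4 libraries. TAR1, a gene inside the ribosomal DNA, had 252, 205, 1041, 772 and 230 FPKM, and the libraries where it was high were those with the largest RDN share. YLR154W-A and YAL004W, unannotated names, had 428 and 117 FPKM in replicate 3 and were listed at 0 in the other 4. The part of ribosomal RNA in these values was not tested.

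Most of the remaining entries of largest SD were listed at 0 in some libraries. YLR286W-A had 51.4 and 56.3 FPKM in replicates 4 and 5 and was listed at 0 in replicates 1 to 3. YLR410W-A had 0, 27.9, 107, 9.40 and 0.38 FPKM, and YGL199C had 23.0, 0, 26.0, 3.63 and 0 FPKM. YLR466C-A, YLR467C-A and YOR396C-A held identical values of 65.3, 36.0, 42.1, 94.8 and 0.25 FPKM, and RDN5-6 and RDN5-1, copies of the 5S ribosomal RNA gene, held 0, 15, 38, 32.8 and 24.3 FPKM.

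**Figure D5:**
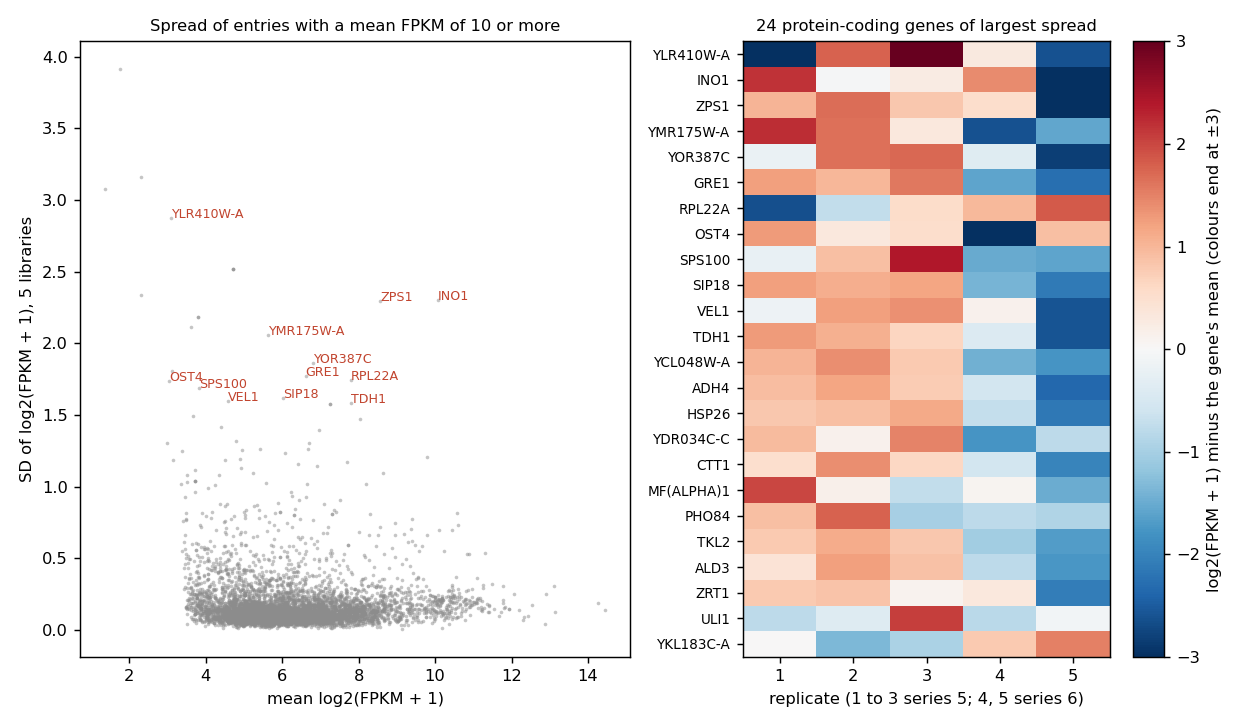
Left, SD of log2(FPKM + 1) over 5 libraries against the mean for entries with a mean FPKM of at least 10, with 12 protein-coding genes named. Right, the 24 protein-coding genes of largest SD, coloured by their difference from their own mean in each library, where replicate 5 is the lowest for INO1, ZPS1, GRE1, ADH4 and others.

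Library series was tested because the labels hold it and the design gives no other grouping within these cells. The quasi-likelihood test of edgeR, with p-values adjusted by Benjamini-Hochberg at 0.05, found 12 of 6240 entries lower in series 6, which is 0.192% of those tested, and 0 higher. An unadjusted p under 0.05 was reached by 688 entries in either direction. DESeq2 called 60 higher and 99 lower, and limma called 1 higher and 12 lower, of which 10 were among the 12 of edgeR. The median log2 change over all entries was -0.0045.

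The entries that passed included genes known from stress and slow growth. GRE1, a hydrophilin of osmotic stress (chrXVI:128632-129138), had 231, 193, 294, 32.0 and 19.5 FPKM, and fell by 3.27 on the log2 scale (SE 0.278, adjusted p = 0.0190). SIP18, a desiccation protein, had 152, 138, 146, 23.7 and 14.1 FPKM, and fell by 2.99 (SE 0.238, adjusted p = 0.0174). The 2 series did not overlap for either gene. TKL2, GND2 and NQM1, the minor isozymes of the pentose phosphate pathway, fell by 2.33, 2.06 and 1.60 (adjusted p = 0.0365, 0.0171 and 0.0171). TKL2 had 71.9, 91.5, 73.7, 19.8 and 12.4 FPKM, and GND2 had 60.6, 67.4, 64.7, 18.0 and 13.4 FPKM. Their main isozymes TKL1, GND1 and TAL1 were not called, with log2 differences of 0.04, -0.01 and -0.24. TAL1 had 997, 950, 948, 857 and 790 FPKM, lower in both libraries of series 6.

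The other calls were FMP16, a mitochondrial protein (fell by 2.05, adjusted p = 0.0414), PAI3, the inhibitor of the vacuolar protease Pep4 (fell by 1.70, adjusted p = 0.0444), PIR3, a cell wall protein (fell by 1.54, adjusted p = 0.0174), PMA2 (fell by 1.11, adjusted p = 0.0224) and 3 Ty retrotransposon entries. Of the Ty entries YLR157C-B fell by 2.16 (adjusted p = 0.0466), YAR010C had 9.35, 11.1, 13.5, 0.116 and 0 CPM, and YDR316W-B had 11.7, 8.90, 10.5, 0 and 0 CPM (counts scaled to TMM library sizes). With limma YDR316W-B (adjusted p = 0.363) and YLR157C-B (adjusted p = 0.107) were not called. Ty copies share reads, so a shift between copies and a change in level cannot be told apart. Leaving out replicate 1, 2 or 5 left 0 calls in either direction.

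Below the threshold, the 30 general stress genes had a median log2 difference of -0.43 for series 6 minus series 5, 28 of them below 0 and 3 called lower, against 51.2% below 0 among all 6240 entries. The 17 genes of gluconeogenesis had -0.64 with all 17 below 0 and no call. The 17 glycolytic genes had -0.27, also with 17 below 0 and no call. The 138 ribosomal protein genes had 0.31 with 4 below 0 and no call. Other lists were as one-sided, with 17 of 17 tested hexose transporter genes, 9 of 9 vacuolar protease genes and 0 of 54 ribosome biogenesis genes below 0. Genes of a list share the same 5 libraries, so these signs are not independent and were not tested. The general stress list held 0.524%, 0.576%, 0.543%, 0.423% and 0.347% of the summed FPKM in replicates 1 to 5, lower in both libraries of series 6. What the library number stands for is not stated, so its part in these differences was not tested further.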

How the data were processed

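PolyA RNA sequencing of 5 empty-vector libraries was used, grouped by the title in the labels. The authors deposited expected counts per gene, taken as rounded because all were whole numbers, and log2 values, which the numbers show to be log2(FPKM + 1), with a pseudocount of 1 and FPKM at 2 decimals. RSEM 1.3.0, STAR 2.5.3a, SAMtools 1.3 and the sacCer3 build are named in the submitters' processing notes. The sources used here do not state the annotation or strand setting of the counting, so overlapping and near-identical genes are uncertain. In 362 cells the count was 0 and the FPKM above 0.

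FPKM was recovered from the log2 values, and entries were ranked by mean log2(FPKM + 1). Of 7126 entries 6048 matched an R64 locus (RefSeq), from which names and coordinates come. The 1078 others held 1.77% to 2.01% of counts. Total counts of 8.61 to 15.6, in units of 10 to the power of 6, put the floor of 3 counts at 0.192 to 0.349 CPM per library, for counting error only. Series 6 was compared with series 5 in edgeR 4.0.16 (filterByExpr, TMM, quasi-likelihood, Benjamini-Hochberg at 0.05), after a check on simulated data. In that check 100 of 100 entries changed by 2 log2 units, and 100 of 100 changed by 3, were recovered with 9 false calls. Only entries of high count were changed, and every entry was given the same biological coefficient of variation. The check therefore does not cover entries of low count or of large spread. Alternatives used DESeq2 1.42.0, limma 3.58.1, other filters and scalings, and each replicate left out. Tables and figures used matplotlib 3.10.9, scipy 1.17.1, numpy 2.4.6 and pandas 2.3.3 under Python 3.11.15, and the fits ran in R 4.3.3.

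The members and the 51 gene lists were chosen with earlier results of these data known. Lists are described by counts, with no test. Named genes were drawn from the 30 most abundant entries, the 3 highest and 2 lowest members of each list, the members of the sugar, mating type and drug resistance marker lists, the 12 entries of largest and 6 of smallest SD (mean FPKM of at least 10 and 100), and up to 10 per direction from the series test with a mean of at least 5 CPM, and those not named are given as counts or ranges. Genes of isozyme and paralog pairs, motif and codon counts, overlapping entries, and the other genes of large spread were chosen after their values were seen.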

Additional observations from a re-analysis of the deposited data

Results flagged for a closer look

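Of 311 named genes with values that differ between libraries, 29 (9.32%) had a highest or lowest library whose gap to the nearest other, divided by the whole range of log2(FPKM + 1), exceeded Dixon's 95% critical value for 5 samples. Chance flags about 1 in 20 groups, genes of a library are not independent, and no cause was tested. Some of the named genes were picked for the largest or smallest SD between these same libraries, among them ZPS1 and PFY1. The flagged share therefore cannot be set against the chance rate. Of the flags on genes and lists, 9 fell on replicate 5, 9 on replicate 3 and 10 on replicate 1.

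Replicate 5 was apart and low for LAP3 (ratio 0.769, 246 FPKM against 387 to 443), the peroxiredoxin AHP1 (0.753, 625 against 1273 to 1608), ZPS1 (0.799), and for YLR466C-A, YLR467C-A and YOR396C-A (0.781 each), which hold identical values in every library. Of 51 list medians examined, 3 were flagged, a share near the chance rate given above, and all were low in replicate 5. They were fermentation (0.931, 6.17 against 7.23 to 7.31 on the log2 scale), the galactose regulon (0.843, 8.11 against 8.52 to 8.59) and phospholipid synthesis (0.771, 7.17 against 7.60 to 7.73). Replicate 5 also had the lowest median of lists without a flag, such as glycolysis and general stress. It had the highest for others, such as cytosolic ribosomal proteins. GAL1, GAL7 and GAL10 were not apart in replicate 5.

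Replicate 3 was apart and high for KAR2 (0.904), PDI1 (0.727), the protease YPS3 (0.721), PCL10 (0.757), YLR154W-A (1) and YAL004W (1), the last pair being listed at 0 in every other library. It was apart and low for CCW22 (0.870), the aldehyde dehydrogenase ALD6 (0.722, 431 FPKM against 729 to 892) and the histone gene HTB1 (0.734).

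Replicate 1 was apart and low for the chaperones SSA2 (0.788, 945 FPKM against 1459 to 1640) and HSC82 (0.774), and for ERG13 (0.779), CYS3 (0.738), CLN2 (0.782), ALG9 (0.752), COX3 (0.733, listed at 0) and the 5S ribosomal RNA entries RDN5-6 and RDN5-1 (0.756 each, listed at 0), and high for HXT4 (0.790). Replicate 4 was high for STE4 (0.896) and SLA2 (0.733), and replicate 2 was high for STR3 (0.736) and low for PFY1 (0.834), where the range among libraries was 560 to 568 FPKM.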

How the results depend on the processing

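No paired analysis was possible because a single group of libraries was used. Of 408 list counts recomputed, 403 stayed within 1.5 times. Against the median of annotation loci, disaccharide use had 1, the mating response 1 and meiosis 3 genes above it, and with CPM per kb disaccharide use had 1 and meiosis 3. Entries listed at 0 numbered 96 among annotation loci, and 454 had a count of 0 in every library, a setting chosen after seeing the data. Ranking by counts without length correction kept 15 of the 30 leading entries. By counts the first 30, 100 and 500 held 11.8%, 20.2% and 43.3%, and among annotation loci the first 100 held 28.7%. The median SD was 0.115 with each series centred, and 0.111 to 0.133 when a library was left out. In the series test DESeq2 gave 60 higher and 99 lower and limma 1 higher. Leaving out a library gave 0 to 1 higher and 0 to 10 lower. The causes were not tested. The 12 calls kept their direction in all settings. Depth limits entries near 1 FPKM. The smallest library, replicate 4, had the fewest counts.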
